A study of Mus musculus with 12 samples.

Results

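The genes followed here are 9 markers of the homeostatic state of microglia, *P2ry12*, *Gpr34*, *Cx3cr1*, *Tmem119*, *Fcrls*, *Slco2b1*, *Olfml3*, *Sall1* and *Mef2c*. They were taken by name from the 770 genes of the nCounter Neuroinflammation panel, and all 9 had a row in the deposited table. RNA of sorted mouse microglia was counted on the nCounter, an instrument that reads a barcoded probe for each RNA molecule with no amplification step. The study asked how aged microglia differ when they are separated by the phosphorylation of ERK1/2, a kinase pair downstream of the growth factor receptor CSF1R. Aged cells gave 4 samples with high phosphorylation (P-ERK1/2 High, numbered 2, 5, 7 and 8) and 4 with low phosphorylation (P-ERK1/2 Low, numbered 3, 6, 9 and 12), and unseparated adult cells gave another 4 (numbered 1, 4, 10 and 11). Adult sample 11 was marked by the submitters as excluded, so adult values rest on 3 samples unless sample 11 is named.

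The mice were labelled C57B6, and mice and cells were labelled untreated. The study's text for this experiment nevertheless gives tamoxifen before analysis, a short time before in adult mice and a long time before in aged mice, and its methods give the Cre mice as hemizygous for *Cx3cr1*-CreERT, so age and the time since tamoxifen cannot be told apart. Adult mice were 12 to 20 weeks old and aged mice more than 80 weeks old. Each sample pooled the CNS of a male and a female mouse, so a sample is a pool and not a single animal. Cells of all groups were fixed and permeabilized, enriched with CD11b beads and sorted as YFP+, CD45 intermediate and Ly6G-. The YFP of this gate is driven by the *Cx3cr1* promoter, so one of the 9 genes is tied to the gate in every group. Whether a High and a Low sample came from the same mice was not stated.

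Homeostatic genes are those that microglia express in the healthy brain and that set them apart from other macrophages of the body. Several of them depend on TGF-beta signalling and on the transcription factor *Sall1*. Many are known to fall when microglia respond to injury, to amyloid or to isolation stress. As markers they cover surface receptors that sense nucleotides, lipids and chemokines, membrane proteins, a secreted glycoprotein and transcription factors.

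In aged P-ERK1/2 Low microglia, 7 of the 9 genes lay below every kept adult sample, as did 10.4% of the panel. For *P2ry12* and *Gpr34*, counted among the 7, no Low sample was above background and no fall could be bounded. *Fcrls*, *Slco2b1*, *Olfml3* and *Tmem119* were called lower in Low, as was 2.73% of the panel. A gene was called at a limma p under 0.01 with a log2 difference beyond 1. In aged P-ERK1/2 High microglia the genes went separate ways. *Fcrls*, *Slco2b1* and *Olfml3* were called lower than adult there as well, as was 7.66% of the panel, whereas *Tmem119*, *P2ry12* and *Sall1* lay above every kept adult sample, as did 35.1% of the panel, and *P2ry12* was called at the limit of the fold rule. These 3 turned lower than adult with the sum of all genes held equal (-0.42, -0.40 and -0.43), where the median of all 770 genes was -1.04. The lower calls of *Fcrls*, *Slco2b1* and *Olfml3* in High were lost with the 6 most stable housekeeping genes and with the positive controls alone. *Slco2b1* was above background in 1 of 4 High samples. Once adult sample 11 was added, 0 of the 9 genes in High lay apart from adult without overlap (7.66% of the panel) and 0 were called (6.36%). Between the aged fractions, *Tmem119*, *P2ry12*, *Sall1* and *Gpr34* were called higher in P-ERK1/2 High, as was 28.2% of the panel. The bounds were at least 1.70-fold for *P2ry12* and 1.26-fold for *Gpr34*, and the log2 differences of *Tmem119* and *Sall1*, above background in 1 of 4 Low samples each, were 2.02 and 1.70.

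RefSeq promoter windows of GRCm38.p6 were at hand for 7 of the 9 genes, *Tmem119* and *Gpr34* being the others. The 250 bases before the transcription start are shown for the 4 genes with a single listed start, since they include a pair that was lower in both aged fractions (*Fcrls* and *Olfml3*), one that was higher in P-ERK1/2 High (*P2ry12*) and one that was not called in any comparison as deposited (*Cx3cr1*). All 4 lie on the minus strand and are written 5′ to 3′ on that strand, with the region of *Fcrls* at chr3:87263525-87263774, that of *Olfml3* at chr3:103738002-103738251, that of *P2ry12* at chr3:59262986-59263235 and that of *Cx3cr1* at chr9:120068297-120068546. The listed start of *Fcrls* lies within the gene, whose 5′ end is at 87263765, so most of its window is not upstream of the gene. Capitals mark the core letters GAGGAA bound by PU.1, the myeloid lineage factor.
Fcrls: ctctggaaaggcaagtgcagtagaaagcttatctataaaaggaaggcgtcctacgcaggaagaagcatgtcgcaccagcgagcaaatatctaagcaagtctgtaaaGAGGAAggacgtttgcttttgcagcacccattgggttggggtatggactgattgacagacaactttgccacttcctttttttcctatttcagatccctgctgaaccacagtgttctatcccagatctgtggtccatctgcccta
Olfml3: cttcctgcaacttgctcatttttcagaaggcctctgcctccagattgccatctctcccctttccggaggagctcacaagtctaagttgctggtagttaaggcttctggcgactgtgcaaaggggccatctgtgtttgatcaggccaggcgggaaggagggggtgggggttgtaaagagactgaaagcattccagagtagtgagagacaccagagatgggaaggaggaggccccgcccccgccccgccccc
P2ry12: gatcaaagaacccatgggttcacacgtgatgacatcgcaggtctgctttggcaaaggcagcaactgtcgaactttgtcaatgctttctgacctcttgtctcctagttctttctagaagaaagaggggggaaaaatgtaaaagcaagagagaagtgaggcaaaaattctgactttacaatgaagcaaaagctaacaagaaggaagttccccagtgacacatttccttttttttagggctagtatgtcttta
Cx3cr1: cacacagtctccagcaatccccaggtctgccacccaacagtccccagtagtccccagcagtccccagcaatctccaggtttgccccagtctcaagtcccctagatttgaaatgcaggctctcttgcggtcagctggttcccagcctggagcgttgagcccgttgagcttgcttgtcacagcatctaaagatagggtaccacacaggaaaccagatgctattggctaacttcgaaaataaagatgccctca
The core GAGGAA, searched on both strands, was in 4 of the 13 windows of the 7 genes (those of *Fcrls*, *Mef2c* and *Slco2b1*) and in 23.3% of all 32851 windows of this length. A loose form of the MEF2 motif, with its 4 middle bases left free, was in the window of *Cx3cr1* and in 3.20% of all windows. In that match the middle bases include a G, where the MEF2 site has A or T, so it is not a full MEF2 site. The letters TGANTCA, a loose form of the AP-1 site, were in a window of *Mef2c* and in 6.75% of all windows. Their middle base was left free, and in that match it is an A, where the AP-1 site has C or G. The short SMAD letters GTCTG, searched likewise on both strands, were in 7 of the 13 windows and in 42.2% of all windows. These letters are a description of the sequences and say nothing of binding in these cells.

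A normalized value is the count of a gene multiplied by one factor per sample, which brings the geometric mean of 13 housekeeping genes to the same level in all samples. The counts recovered by dividing by this factor summed to between 650965 and 1539936 per High sample, against 123798 to 157209 per Low sample and 137980 to 326575 per kept adult sample. A count passed the background where it exceeded the average of the 8 negative probes on the same sample by more than 2 SD, which needed 20.6 to 41.9 counts over the kept samples. All 6 microglia markers checked (*Csf1r*, *Itgam*, *C1qa*, *C1qb*, *C1qc* and *Trem2*) were above background in all samples. Adult sample 11 stood apart from its label. Its total was 1464449 counts, its positive control probes summed to 8633 counts against 33391 to 54417 in the other samples, and over the 761 other genes its log2 values correlated at 0.954 with the P-ERK1/2 High mean and at 0.808 with the mean of the other adult samples. In bulk RNA, fewer cells that express a gene and less RNA per cell cannot be told apart.

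Several of these genes were at or under the background in P-ERK1/2 Low. The counts of *P2ry12* (9 to 23), *Gpr34* (11 to 21) and *Slco2b1* (5 to 19) were above background in 0 of 4 Low samples. *Tmem119* (16 to 26 counts) and *Sall1* (23 to 32 counts) passed the background in 1 of 4 Low samples, *Fcrls* and *Cx3cr1* in 3 of 4, and *Olfml3* and *Mef2c* in 4 of 4. In P-ERK1/2 High, 8 of the 9 genes were above background in all 4 samples, the exception being *Slco2b1*, which was above it in sample 7 alone with 68 counts. In the kept adult samples, *P2ry12*, *Gpr34* and *Cx3cr1* were each above background in 2 of 3 and the other 6 genes in 3 of 3.

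**Figure D1:**
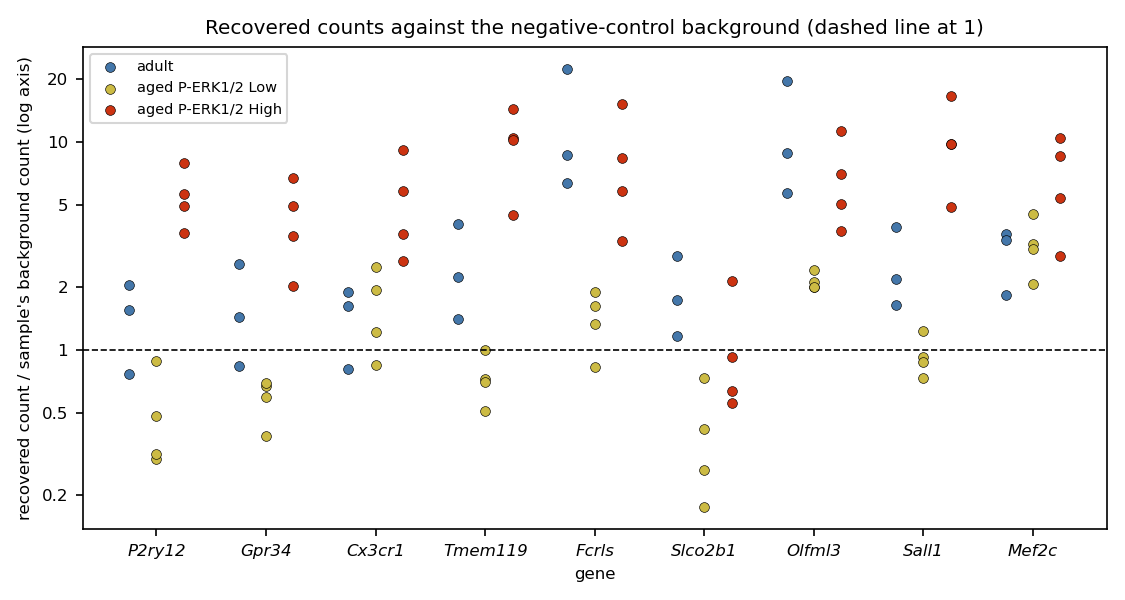
Recovered count of each gene divided by the background count of its sample (log axis), one point per kept sample, colored by group. Points under the dashed line at 1 are not above background, which holds for all 4 P-ERK1/2 Low samples of P2ry12, Gpr34 and Slco2b1.

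*P2ry12* encodes the purinergic receptor by which microglial processes sense ADP. Its normalized values were 72.6, 78.0 and 101 in adult samples 1, 4 and 10. They were 50.8, 31.6, 61.5 and 36.9 in Low samples 3, 6, 9 and 12, and 144, 151, 282 and 128 in High samples 2, 5, 7 and 8. High lay above both other groups without overlap. All Low samples and adult sample 1 were under their background, so Low and adult are not ranked. *P2ry12* rose in High over Low by 1.91 ± 0.30 (log2 difference ± SE, limma adjusted p = 0.000347). Because no Low sample was above background, the bound on this change is at least 1.70-fold higher in High. Against adult the difference was 1.00 ± 0.31 in High (limma adjusted p = 0.0218), just past the fold rule, and -0.91 ± 0.25 in Low (limma adjusted p = 0.0328), which missed the fold rule, and no fall could be bounded because no Low sample was above background. The call in High against adult was lost when any 1 of the kept samples but High sample 8 was left out, with median-of-ratios scaling (0.63), quantile normalization (0.62), the sum of all genes held equal (-0.40), a pseudocount of 20 (0.86) and all 4 adult samples (0.79), and after background subtraction (limma unadjusted p = 0.0121).

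*Gpr34* encodes a receptor for lysophosphatidylserine. Its values were 79.4, 97.8 and 93.9 in adult samples 1, 4 and 10. They were 71.2, 63.1, 48.2 and 45.1 in Low samples 3, 6, 9 and 12, and 80.3, 180.1, 174 and 92.5 in High samples 2, 5, 7 and 8. High lay above Low without overlap, with High samples 2 and 8 within the adult range and samples 5 and 7 above it. All Low samples and adult sample 1 were under their background, so Low and adult are not ranked. *Gpr34* rose in High over Low by 1.13 ± 0.31 (limma adjusted p = 0.00838), and the bound was at least 1.26-fold higher. Leaving out High sample 5 or 7 or Low sample 9 or 12 took this call away, with 0.95 as the lowest of the leave-one-out differences. It was also lost with median-of-ratios scaling (0.88), quantile normalization (0.69), the sum of all genes held equal (0.12), a pseudocount of 20 (0.93) and counts raised to 20 (0.84). The difference to adult was -0.68 ± 0.20 in Low and 0.45 ± 0.33 in High, and neither was called. No fall in Low could be bounded, since no Low sample was above background.

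*Cx3cr1* encodes the receptor for the neuronal chemokine fractalkine and supplied the promoter of the sorting reporter. Its values were 72.2 to 106 in adult, 98.5 to 207 in Low and 95.5 to 247 in High, and the ranges of all 3 groups overlapped. The difference between High and Low was 0.04 with a 95% interval from -0.66 to 0.74. Against adult it was 0.79 ± 0.28 in Low (limma adjusted p = 0.0706) and 0.83 ± 0.33 in High (limma adjusted p = 0.0580), and neither was called. High sample 7 was the lowest of its group at 95.5, and without it *Cx3cr1* in High was called against adult at 1.05 (limma adjusted p = 0.0135). It was called there too with the 6 most stable housekeeping genes (1.54) and the positive controls alone (1.99), and in High against Low with the latter (2.00).

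*Tmem119* encodes a transmembrane protein used to tell microglia from infiltrating macrophages. Its values were 134, 153 and 146 in adult samples 1, 4 and 10. They were 54.2, 77.1, 69.6 and 82.0 in Low samples 3, 6, 9 and 12, and 175, 282, 510 and 267 in High samples 2, 5, 7 and 8. High again lay above both other groups without overlap, and the Low values, of which 1 of 4 was above background, lay below the adult ones. *Tmem119* fell in Low against adult by 1.03 ± 0.17 (limma adjusted p = 0.00470) and rose in High over Low by 2.02 ± 0.31 (limma adjusted p = 0.000270). In High against adult it was 0.99 ± 0.34 (limma adjusted p = 0.0327), just short of the rule. *Tmem119* was called higher there with the 6 most stable housekeeping genes (1.70) and the positive controls alone (2.15). The same held without High sample 2 and at an adjusted p under 0.05 without a fold limit, whereas the sum held equal gave -0.42. Leaving out Low sample 3 or adult sample 4 moved the fall in Low inside the fold limit, to -0.91 at the least, as did a pseudocount of 20 (-0.86) and counts raised to 20 (-0.95).

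*Fcrls* encodes an Fc receptor-like scavenger receptor of mouse microglia. Its values were 601, 851 and 563 in adult samples 1, 4 and 10. They were 173, 87.6, 131 and 156 in Low samples 3, 6, 9 and 12, and 131, 225, 541 and 152 in High samples 2, 5, 7 and 8. All aged samples lay below all kept adult samples, and High sample 7 at 541 came close to the lowest of them at 563. *Fcrls* fell in Low by 2.31 ± 0.26 (limma adjusted p = 0.00100). In High it was lower by 1.57 ± 0.44 (limma adjusted p = 0.0140), and by 1.99 without sample 7 (limma adjusted p = 0.000479). The High call was lost without adult sample 1 or 4 or without High sample 2, 5 or 8, and after background subtraction (limma adjusted p = 0.0575). Between the aged fractions the difference was 0.74 with a 95% interval from -0.15 to 1.63.

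*Slco2b1* encodes an organic anion transporter. Its values were 111, 107 and 114 in adult samples 1, 4 and 10. They were 44.1, 28.1, 50.8 and 20.5 in Low samples 3, 6, 9 and 12, and 21.9, 17.2, 76.4 and 24.1 in High samples 2, 5, 7 and 8. Both aged fractions lay below adult without overlap, and sample 7 was the highest of the aged samples. *Slco2b1* fell against adult by 1.68 ± 0.30 in Low (limma adjusted p = 0.00598), where the bound was at least 1.13-fold lower, and by 1.90 ± 0.44 in High (limma adjusted p = 0.00518), where sample 7 alone was above background, so that the size of that fall is set largely by the floor. The call in Low was lost with counts raised to 20 (-0.70), and that in High after background subtraction (limma adjusted p = 0.0659). Between the aged fractions the difference was -0.21 with a 95% interval from -1.18 to 0.74, and most of those samples were not above background.

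*Olfml3* encodes a secreted glycoprotein of the olfactomedin family. Its values were 538, 746 and 581 in adult samples 1, 4 and 10. They were 213, 224, 169 and 234 in Low samples 3, 6, 9 and 12, and 147, 189, 400 and 130.5 in High samples 2, 5, 7 and 8. Every aged sample lay below every kept adult sample, and this gene was above background in all 12 samples. *Olfml3* fell against adult by 1.56 ± 0.18 in Low (limma adjusted p = 0.00106) and by 1.65 ± 0.37 in High (limma adjusted p = 0.00473), and no single sample left out took either call away. Between the aged fractions the difference was -0.09 with a 95% interval from -0.81 to 0.62.

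*Sall1* encodes the zinc finger transcription factor that maintains microglial identity. Its values were 157, 148 and 143 in adult samples 1, 4 and 10. They were 77.9, 98.2, 85.6 and 103 in Low samples 3, 6, 9 and 12, and 192, 448, 347 and 256 in High samples 2, 5, 7 and 8. The groups did not overlap, with High the highest and Low, above background in 1 of 4 samples, the lowest. *Sall1* rose in High over Low by 1.70 ± 0.27 (limma adjusted p = 0.000382). Against adult it was -0.71 ± 0.15 in Low (limma adjusted p = 0.0107) and 0.98 ± 0.31 in High (limma adjusted p = 0.0218), both short of the fold rule. In High against adult *Sall1* was called higher with the 6 most stable housekeeping genes (1.69) and the positive controls alone (2.15). The same held after background subtraction, without High sample 2 and at an adjusted p under 0.05 without a fold limit, whereas the sum held equal gave -0.43. In Low it was called lower with the sum held equal (-1.10) and the positive controls alone (-1.50).

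*Mef2c* encodes a transcription factor that restrains the inflammatory response of microglia. Its values were 136 to 220 in adult, 220.2 to 357 in Low and 101 to 280.2 in High. The lowest Low sample lay just above the highest adult sample, and High overlapped both. As deposited, *Mef2c* was not called in any comparison, with 0.80 ± 0.23 in Low against adult, 0.14 ± 0.36 in High against adult and -0.66 ± 0.32 in High against Low. In High against Low it was called lower with quantile normalization (-1.02) and with the sum held equal (-1.68) and higher with the positive controls alone (1.32), and in High against adult lower with the sum held equal (-1.27). It was the one of the 9 genes whose mean was highest in Low, at 308 ± 61.5 (SD, n = 4), against 177 ± 41.9 (SD, n = 3) in adult and 204 ± 74.9 (SD, n = 4) in High.

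**Figure D2:**
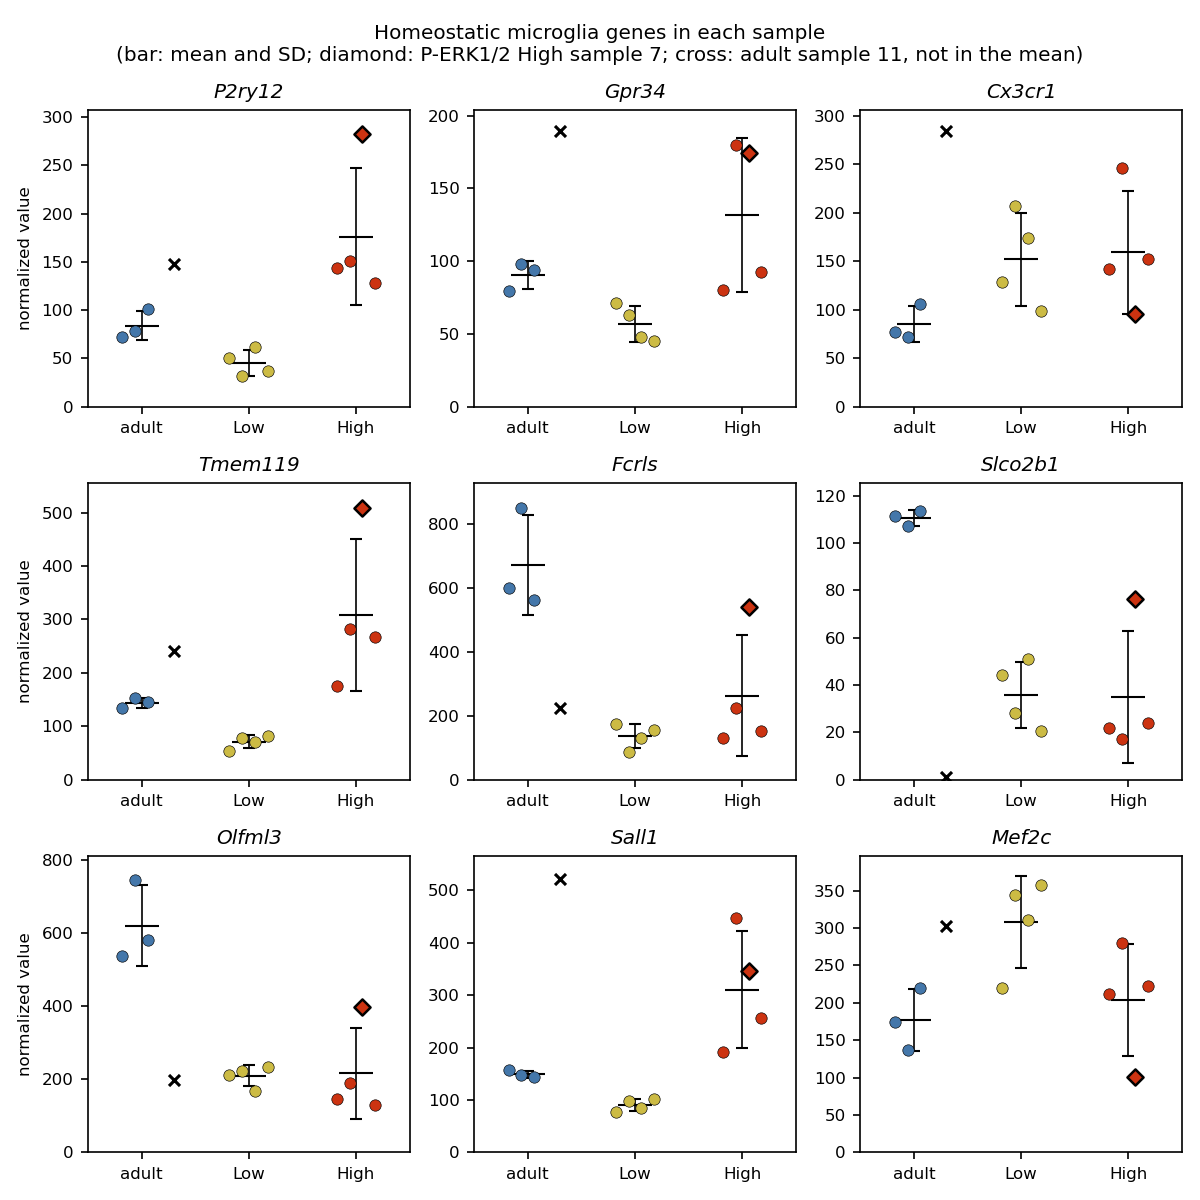
Normalized values of the 9 genes (linear axis from 0), one point per sample, with the mean and SD of each group (n = 3 adult, 4 Low, 4 High). Diamonds are High sample 7 and crosses adult sample 11, which is not in the mean. Fcrls, Slco2b1 and Olfml3 are highest in adult, and in Tmem119, P2ry12 and Sall1 the High samples lie above the kept adult and Low samples. The Low points of P2ry12 are all at the background, as are those of 3 of the 4 Low samples for Tmem119 and Sall1.

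Counted over the list, P-ERK1/2 Low against adult gave 4 called genes of 9, all lower, where 10.8% of the panel was called, 2.73% lower and 8.05% higher. Of the 9 genes, 7 lay lower with no overlap between the groups, where 10.4% of the panel lay lower without overlap, and *Mef2c* lay higher, as did 26.1% of the panel. The 7 include *P2ry12* and *Gpr34*, whose Low values were all under the background and whose fall could not be bounded. At an adjusted p under 0.05 without a fold limit, 8 of the 9 genes passed, *Cx3cr1* being the other, where 26.1% of the panel did. The median difference of the 9 genes was -0.91 and that of all genes was 0.10. With adult sample 11 added, 3 genes were called (*Fcrls*, *P2ry12* and *Tmem119*) where 4.42% of the panel was called, at limma adjusted p from 0.0914 to 0.152, and *Slco2b1*, listed at 1 in sample 11, gave -0.23 ± 1.22.

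P-ERK1/2 High against adult gave 4 called genes of 9, with *Fcrls*, *Slco2b1* and *Olfml3* lower and *P2ry12* higher, where 36.9% of the panel was called, 29.2% higher and 7.66% lower. Without overlap, 3 of the 9 genes lay lower, as did 15.2% of the panel, and 3 lay higher, as did 35.1% of the panel. Without High sample 7, 39.4% of the panel was called and the called genes were *Fcrls*, *Slco2b1*, *Olfml3* and *Cx3cr1*. With adult sample 11 added, 0 of the 9 genes and 6.36% of the panel were called by limma, and 1 of the 9 had an unadjusted p under 0.05.

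P-ERK1/2 High against Low gave 4 called genes of 9, all higher, where 37.8% of the panel was called, 28.2% higher and 9.61% lower. The share of the list thus stood near that of the panel as a whole. The same 4 genes were those that lay higher without overlap, as did 31.3% of the panel. Without High sample 7, 3 genes were called (*Tmem119* at 1.74, *P2ry12* at 1.66 and *Sall1* at 1.62) where 37.5% of the panel was called. The 3 comparisons share samples in pairs, so their values are set side by side and are not independent of each other.

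**Figure D3:**
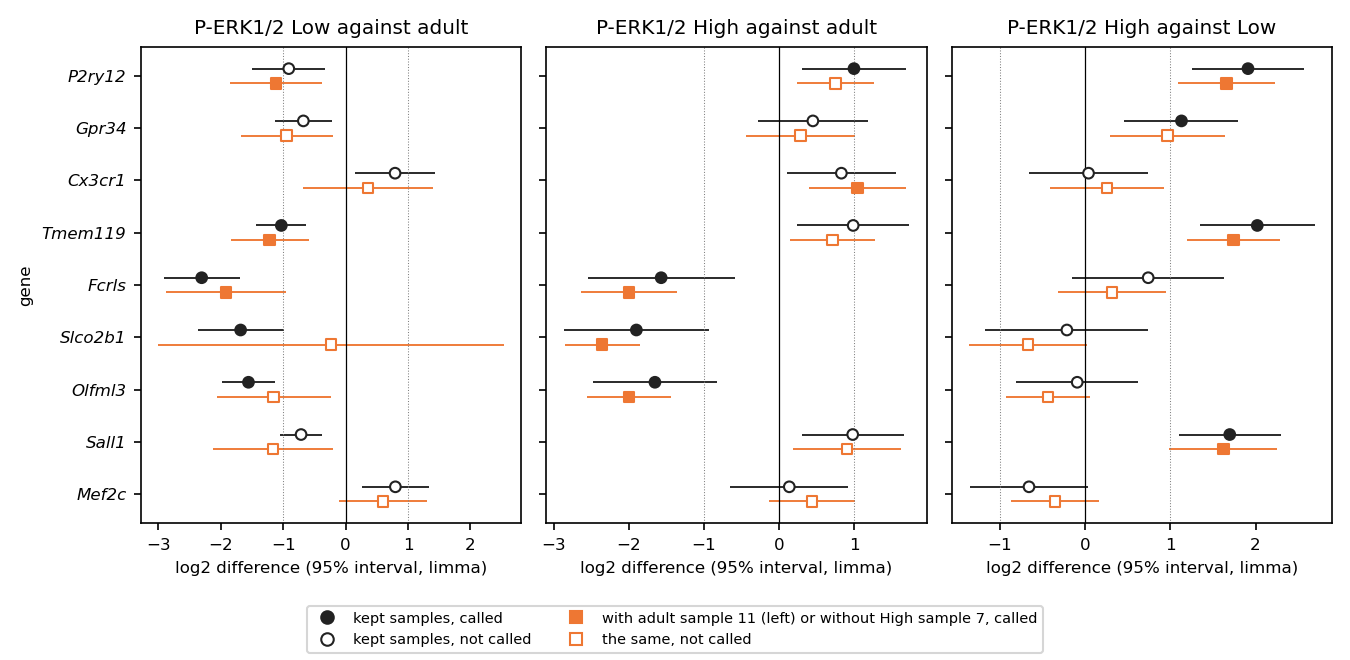
Log2 difference of each gene with its 95% interval from limma in the 3 comparisons, filled where called. Squares repeat the fit with adult sample 11 (left) or without High sample 7 (middle and right). Fcrls, Slco2b1 and Olfml3 lie left of 0 in both comparisons with adult, and Tmem119, P2ry12, Sall1 and Gpr34 right of 0 in High against Low.

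High sample 7 carried much of the spread among these genes. It had the highest value of its group for *Tmem119*, *P2ry12*, *Fcrls*, *Slco2b1* and *Olfml3* and the lowest for *Cx3cr1* and *Mef2c*. Over the 761 other genes its log2 values correlated at 0.952 with the mean of the other High samples and at 0.871 with the adult mean. Its summed level was the highest in High for the neuron, oligodendrocyte, endothelium and monocyte markers, at 398, 285, 729 and 433, and for the neutrophil markers at 164. It was the lowest in High for the astrocyte and border macrophage markers, at 683 and 158. The part of these in its homeostatic genes was not tested.

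Summed levels of markers of other cell types were also unequal between the groups and were not tested. The 4 endothelial markers summed to 430 to 729 in High, 130 to 234 in Low and 201 to 287 in adult, and 3 of the 4 were above background in every High sample and 0 of 4 in every Low sample, with *Tie1* above background in no High sample. The 4 astrocyte markers summed to 683 to 1253 in High, 457 to 562 in Low and 304 to 469 in adult, with 2 of the 4 above background in every High sample and 1 of 4 in every Low sample. The 5 T and NK cell markers summed to 226 to 976 in High, 98.5 to 147 in Low and 88.5 to 208 in adult, with 1 of the 5 above background in every High sample, 0 of 5 in every Low sample and *Cd8a* above background in no High sample. The 4 border macrophage markers summed to 158 to 210 in High, 136 to 168 in Low and 130 to 159 in adult. Of these, *Siglec1* and *Cd163* were above background in every High sample, *Cd163* in no Low or kept adult sample, and *Ms4a4a* and *Marco* in no kept sample, and 0 of the 4 were above it in every Low or every kept adult sample. The 3 monocyte markers summed to 158 to 433 in High, 66.9 to 133 in Low and 92.0 to 191 in adult, with 1 of the 3 above background in every High sample and 0 of 3 in any Low sample. The 5 neuron markers summed to 196 to 398 in High, 156 to 217 in Low and 160 to 206 in adult, and the 5 oligodendrocyte markers to 134 to 285, 88.1 to 140 and 143 to 220. Neutrophil and B cell markers were not higher in High, the 2 neutrophil markers summing to 81.5 to 164 in High, 126 to 160 in Low and 167 to 227 in adult and the 2 B cell markers to 30.4 to 45.0, 36.9 to 72.2 and 27.9 to 81.7. The part of these cells in the levels of the 9 genes was not tested.

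Scaling moved the comparisons of High with the other groups, and it moved all genes together. The housekeeping genes themselves differed between High and Low, from -1.22 for *Lars* to 3.34 for *Supt7l* on the log2 scale. The median difference of all 770 genes in High against Low was 0.26 as deposited, 0.00 with median-of-ratios scaling, -0.10 with quantile normalization, 1.02 with the 6 most stable housekeeping genes, -0.76 with the sum of all genes held equal and 2.15 with the positive controls alone. With the sum held equal, 1 of the 9 genes was called (*Mef2c*, lower) where 48.2% of the panel was, and with the positive controls alone all 9 were called higher where 85.6% of the panel was. Relative to that median, the difference of *Tmem119* was 1.76 to 1.80 over these 6 scalings, that of *P2ry12* 1.65 to 1.69, that of *Sall1* 1.42 to 1.49 and that of *Gpr34* 0.79 to 0.90. *Fcrls* lay 0.48 to 0.55 above the median, and *Cx3cr1*, *Olfml3*, *Slco2b1* and *Mef2c* lay below it, with *Mef2c* at -0.92 to -0.83. Taking off the median cancels any one factor per sample. Ranges relative to the median are therefore narrow by construction for all of these scalings but quantile normalization.

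Against adult, Low gave 7 called genes of 9, all lower, with the sum held equal, where 10.8% of the panel was called, and 7 with the positive controls alone, where 29.4% was. In Low, relative to the median of all genes, *Fcrls* was at -2.68 to -2.41, *Slco2b1* at -1.80 to -1.71, *Olfml3* at -1.93 to -1.66 and *Tmem119* at -1.14 to -1.06 over the 6 scalings. In High, *Fcrls* was at -2.23 to -1.88, *Slco2b1* at -2.26 to -2.11 and *Olfml3* at -2.28 to -1.96, while *Tmem119*, *P2ry12* and *Sall1* lay 0.57 to 0.67 above the median gene. As above, these ranges are narrow by construction for the scalings that use one factor per sample. Before the median is taken off, the higher level of *Tmem119*, *P2ry12* and *Sall1* in High against adult turned to -0.42, -0.40 and -0.43 with the sum of all genes held equal. The median of all genes was then -1.04. The lower level of *Fcrls*, *Slco2b1* and *Olfml3* in both aged fractions kept its sign under all 6 scalings. In High against adult, though, the 3 calls were lost under a pair of them, with differences of -0.86, -1.20 and -0.94 for *Fcrls*, *Slco2b1* and *Olfml3* with the 6 most stable housekeeping genes and of -0.40, -0.74 and -0.48 with the positive controls alone.

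**Figure D4:**
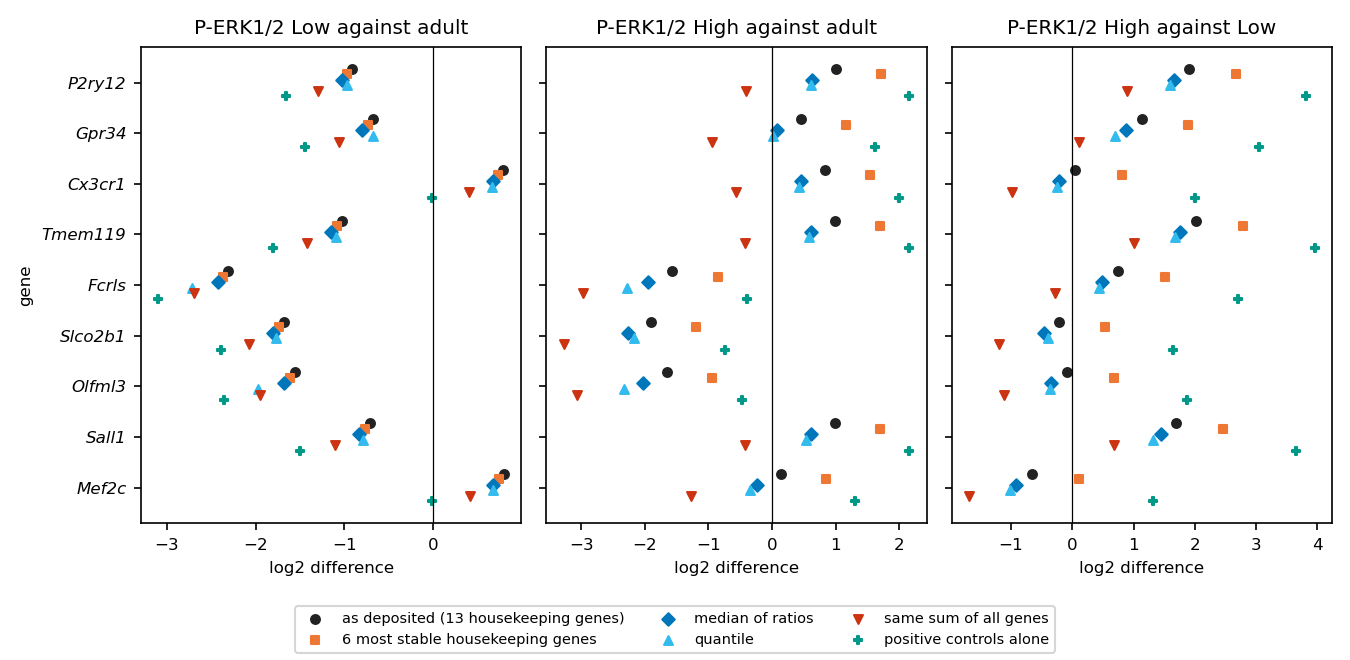
Log2 difference of each gene under 6 scalings of the same counts in the 3 comparisons. In High against Low and High against adult the marks of one gene spread over more than 2 log2 units, and with the sum of all genes held equal (downward triangles) Tmem119, P2ry12 and Sall1 in High against adult cross to the left of 0.

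A ratio of genes within a sample does not depend on the one factor by which that sample is multiplied, and pairs are given as a description, chosen after their values were seen. The log2 value of *Tmem119* minus that of *Fcrls* was -2.48 to -1.95 in the kept adult samples, -1.67 to -0.18 in Low and -0.09 to 0.81 in High. *Sall1* minus *Olfml3* was -2.34 to -1.78 in adult, -1.45 to -0.98 in Low and -0.20 to 1.24 in High. For both pairs High lay above the kept adult samples without overlap, and adult sample 11 fell at 0.11 and 1.39. *Tmem119* and *Sall1* were above background in 1 of 4 Low samples each and *Fcrls* in 3 of 4, so the ratios in Low are set largely by the floor and are not ranked against the other groups.

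A further 20 microglia-enriched genes of the panel served as the other genes of this program. Of these, *Slc2a5* and *Ltc4s* were above background in no kept sample, and *St3gal6* in 0 of 4 Low and 1 of 3 kept adult samples. The counts below include these genes at the floor. In Low against adult, 0 of the 20 genes were called by limma, where 10.8% of the panel was. By limma 7 of the 20 had an unadjusted p under 0.05, and 6 were lower and 14 higher, with a median of 0.08. In High against Low, 4 of 20 were called, where 37.8% of the panel was. *Plxdc2*, a transmembrane plexin-domain protein, rose by 2.92 ± 0.24 and *St3gal6*, a sialyltransferase, by 2.10 ± 0.24, where no Low sample was above background and the bound was at least 2.39-fold higher. *Bin1*, a membrane-bending adaptor, fell by 1.27 ± 0.27 and *Cd33*, a sialic acid receptor, by 1.00 ± 0.31. The call of *Cd33* was at the limit of the fold rule and was lost when any 1 sample but High sample 7 was left out. In High against adult, 5 of 20 were called, where 36.9% of the panel was, with *Tmem173*, which encodes STING, higher by 1.39 ± 0.28 besides *Plxdc2* and *St3gal6*, and *Bin1* and *Cd33* again lower. With all 4 adult samples, *Plxdc2* and *St3gal6* alone stayed called there, and *Bin1*, *Cd33* and *Tmem173* gave -0.54, -0.94 and 1.00. The count and direction of calls moved with the scaling. In High against Low, 2 were higher and 12 lower with the sum of all genes held equal, 2 higher and 7 lower with quantile normalization, 2 higher and 4 lower with median-of-ratios scaling, 8 higher and 0 lower with the 6 most stable housekeeping genes, and 17 higher and 0 lower with the positive controls alone. The panel shares called under these were 48.2%, 37.4%, 38.7%, 47.4% and 85.6%, and *Bin1* and *Cd33* were not called under the last pair. *Ltc4s* was among the lower calls with the sum held equal, quantile normalization and median-of-ratios scaling. *Slc2a5* was among the calls with the sum held equal (lower) and the positive controls alone (higher). *Csf1r*, the growth factor receptor of microglia, was at 2745 ± 154 in Low, 1846 ± 200 in adult and 1553 ± 277 in High (SD), and was not called in any comparison as deposited. Its difference was -0.84 ± 0.21 in High against Low (limma adjusted p = 0.00589) and 0.58 ± 0.14 in Low against adult (limma adjusted p = 0.0189), both inside the fold limit. In High against Low it was called lower with median-of-ratios scaling, quantile normalization and the sum held equal, and higher with the positive controls alone, and in High against adult it was called lower with quantile normalization and the sum held equal. *Tgfbr1*, a receptor subunit for TGF-beta, was at 1488 ± 81.6 in adult, 947 ± 98.1 in Low and 1624 ± 497 in High (SD), and was not called as deposited. In Low against adult its difference was -0.66 ± 0.14 (limma adjusted p = 0.0124), and it was called lower with quantile normalization, the sum held equal and the positive controls alone. In High against Low it was called higher with the 6 most stable housekeeping genes and the positive controls alone, and in High against adult lower with the sum held equal.

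Over the 11 kept samples, the mean centred log2 value of the 9 genes was 0.23 to 0.40 in adult, -0.57 to -0.41 in Low and -0.16 to 0.73 in High. Of the 741 genes on neither list, those most like it were *Ttr* (Pearson r = 0.946), *Hif1a* (r = 0.919), *Ctse* (r = 0.911), *Tgm2* (r = 0.909) and *Ccl5* (r = 0.907), as a description over samples that share one scaling. *Ttr*, the thyroid hormone carrier made by the choroid plexus, had means of 515 ± 116 in adult, 208 ± 21.2 in Low and 643 ± 473 in High (SD).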

How the data were processed

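Microglia RNA was measured on the nCounter Neuroinflammation panel in 12 samples, and 11 were kept. The deposited values are a signal that the authors made in nSolver (version not given in the sources used here) by multiplying each count by one factor per sample, set by 13 housekeeping genes, without background subtraction. No column was left unmapped. Division by the factor gave whole counts within 0.1 for 99.83% of 9240 values, and the 16 others are values listed at 1 in adult sample 11.

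Each comparison was fitted on log2(value + 1) of all 770 genes with limma 3.58.1 in R 4.3.3, without a filter. The rule for a called gene was a p under 0.01 together with a log2 difference beyond 1, and p-values were adjusted by Benjamini-Hochberg over 770 genes. P-values set a group difference against the spread between these samples, with the variance moderated over the 770 genes. Each sample is a pool of a male and a female mouse, so this is not the spread between animals. A fold is given as a bound where no sample of a group was above background. The fit was tested on simulated data. Counts cover counting error only and limit what can be read in P-ERK1/2 Low. The 9 genes, the gene lists and the tests were chosen with earlier results of these data known. The genes named are the 9, the called genes of the list of 20 with *Csf1r*, *Tgfbr1*, *Slc2a5* and *Ltc4s*, and the 5 genes most like the 9. *Csf1r* and *Tgfbr1*, the scaling genes and the ratio pairs were picked after their values were seen. Alternatives covered a pseudocount of 0.1 or of 20, a filter at a mean of 50, counts raised to 20, scalings, background subtraction, call rules and samples left out.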

Additional observations from a re-analysis of the deposited data

Results flagged for a closer look

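Adult sample 11, which the submitters had excluded and the comparisons leave out, held values above all 3 kept adult samples for 6 of the 9 genes. The normalized values were 241 for *Tmem119*, 148 for *P2ry12*, 521 for *Sall1*, 189 for *Gpr34*, 284 for *Cx3cr1* and 303 for *Mef2c*. They were 1.38 to 3.33 times the highest kept adult sample. Of these, *Tmem119* and *P2ry12* lay inside the range of P-ERK1/2 High and the other 4 above it, while *Fcrls* (224) and *Olfml3* (199) lay below the kept adult samples and inside the range of High. Among the 18 sets of 4 aged samples (9 genes in 2 groups), High sample 7 stood farther from the others than the 95% limit of Dixon's test on normalized values for 2, *P2ry12* at 282 and *Slco2b1* at 76.4, with the gap to its nearest neighbour taking 0.852 and 0.883 of the range. On log2 values 0 of the 18 sets passed that limit. Chance passes about 1 set in 20.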

How the results depend on the processing

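No paired analysis was possible because no sample number is shared between groups. The planned edgeR alternative was not run, since the deposited values were kept as a normalized signal. Of the differences of the 9 genes under alternatives, 457 were unchanged in direction and call and 30 turned sign. With the sign kept, 46 lost a call and 33 gained one, and the cause was not tested. The number of genes called in High against Low went from 4 to 1 with the sum of all genes held equal (48.2% of the panel called) and to 9 with the positive controls alone (85.6%). In Low against adult it went from 4 to 7 under each of these scalings (10.8% and 29.4%), to 2 with counts raised to 20 (8.83%) and to 8 at an adjusted p under 0.05 without a fold limit (26.1%). In High against adult it went from 4 to 0 with all 4 adult samples (6.36% of the panel) and to 2 after background subtraction (31.9%). Leaving out each sample gave 3 to 4 called genes in High against Low (30.5% to 40.3% of the panel), 3 to 5 in Low against adult (9.74% to 12.3%) and 2 to 4 in High against adult (29.2% to 39.4%), with 2 in the last without adult sample 1, adult sample 4 or High sample 5.

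Signs turned as follows. Among them *P2ry12* was the one gene called as deposited, and that call was lost. *Mef2c* in High against adult was called with the turned sign with the sum held equal. So were *Mef2c*, *Olfml3* and *Slco2b1* in High against Low with the positive controls alone. With the sum of all genes held equal, High against Low gave -0.98 for *Cx3cr1* and -0.28 for *Fcrls*, and High against adult gave -0.57 for *Cx3cr1*, -0.95 for *Gpr34*, -1.27 for *Mef2c*, -0.40 for *P2ry12*, -0.43 for *Sall1* and -0.42 for *Tmem119*. With the positive controls alone, High against Low gave 1.32 for *Mef2c*, 1.88 for *Olfml3* and 1.65 for *Slco2b1*, and Low against adult gave -0.012 for *Cx3cr1* and -0.014 for *Mef2c*. With the 6 most stable housekeeping genes, High against Low gave 0.11 for *Mef2c*, 0.67 for *Olfml3* and 0.53 for *Slco2b1*. Median-of-ratios scaling and quantile normalization gave -0.21 and -0.24 for *Cx3cr1* in High against Low and -0.24 and -0.35 for *Mef2c* in High against adult. Background subtraction gave 0.54 for *Olfml3* in High against Low, and all 4 adult samples gave -0.061 for *Mef2c* in High against adult. Leaving out a sample gave ranges across 0 in High against Low for *Cx3cr1* (-0.20 to 0.26), *Olfml3* (-0.44 to 0.10) and *Slco2b1* (-0.67 to 0.027), and in High against adult for *Mef2c* (-0.044 to 0.44).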
